A study of Rattus norvegicus with 4 samples.

Results

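The genes described here were 10 that load histones onto new DNA, copy DNA methylation marks after replication or methylate histone H3: Asf1a, Asf1b, Chaf1a, Chaf1b, Uhrf1, Dnmt1, Dnmt3a, Hells, Ezh1 and Ezh2. They were taken by symbol from a deposited table of 32623 genes, and each symbol matched a row. Transcript levels come from RNA sequencing of tendon stem/progenitor cells (TSPCs) of the rat, a progenitor population obtained from tendon. The control group was 2 libraries of TSPCs given DMSO, the solvent, and the treated group was 2 libraries of TSPCs given U0126, which blocks the MEK kinases that activate ERK. The question the design puts is which transcripts differ in TSPCs when the ERK pathway is inhibited. The sources used here do not give dose, exposure time, or the strain, sex and age of the animals. Each library is numbered as a biological replicate with no animal or culture named, so every p-value reflects the spread between these libraries, which may be technical.

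During DNA replication, new nucleosomes are built from histones that chaperones carry to the fork. The paralogs Asf1a and Asf1b hold H3-H4 dimers and pass them to chromatin assembly factor 1 (CAF-1), whose large and middle subunits are encoded by Chaf1a and Chaf1b. Uhrf1 binds the half-methylated CpG sites left by replication and recruits Dnmt1, the maintenance methyltransferase, while the remodeler Hells opens nucleosomal DNA for it and Dnmt3a methylates unmodified DNA. Ezh1 and Ezh2 are alternative catalytic subunits of Polycomb repressive complex 2 (PRC2), which methylates lysine 27 of histone H3. Asf1b and Ezh2 are known mainly from dividing cells, and Asf1a and Ezh1 are also made in cells that do not divide.

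Each library held between 36888913 and 42785190 counts, and the 10 genes together took 7652 and 9043 of these in the control libraries and 5070 and 4527 in the U0126 libraries. Mitochondrial genes took a share of 3.48% and 2.98% in the controls and 5.64% and 4.82% with U0126. Dusp6, an ERK phosphatase whose transcription follows ERK activity, stood at 37.1 and 37.3 CPM in the controls and 22.1 and 17.6 CPM with U0126. CPM is the count scaled to library size, here after TMM scaling. Of 8 tendon markers, 7 had a count in every library, among them Scx and Col1a1, and Tnmd had 2 and 5 control counts and 2 and 0 with U0126. Their levels were not stable. Tnc stood at 3106 and 3562 CPM in the controls and 1041 and 1247 CPM with U0126. Scx stood at 12.2 and 11.8 against 20.5 and 20.4 CPM, and Fmod at 15.1 and 13.5 against 32.1 and 37.0 CPM. Mkx, Dcn and Thbs4 also lay above both controls in both U0126 libraries, and Col1a1 overlapped. Markers of skeletal muscle, of which 4 of 6 had a count in every library and Pax7 had 0 counts in all, summed to 243 and 281 TPM in the controls and 99.1 and 151 TPM with U0126. Nearly all of that sum was Acta1, at 233 and 273 TPM in the controls and 96.4 and 148 TPM with U0126. Myod1 had counts of 84 and 82 in the controls and 9 and 3 with U0126. Cdh15 had 94 and 88 against 26 and 20, and Des had 308 and 248 against 67 and 101. Myog went the other way, with counts of 6 and 0 in the controls against 25 and 8 with U0126. Macrophage markers, of which 3 of 5 in the table had a count in every library, summed to 14.4 and 13.7 TPM in the controls and 11.6 and 11.4 TPM with U0126, with Ptprc at 0 counts in all 4 libraries. Endothelial markers summed to at most 0.301 TPM and blood cell markers to at most 0.0648 TPM in any library, and Cdh5, Emcn and Hbb had 0 counts in all.

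With U0126, Asf1b, Chaf1a, Chaf1b, Uhrf1, Dnmt1 and Ezh2 fell and Ezh1 rose, while Asf1a, Dnmt3a and Hells did not pass the test (quasi-likelihood test of edgeR, Benjamini-Hochberg adjustment over 14023 tested genes, threshold 0.05). The 6 genes that fell were an H3-H4 chaperone, the CAF-1 subunits, the hemimethylated-DNA reader with its methyltransferase, and a PRC2 catalytic subunit. All 10 passed the filter on low counts. Across all tested genes 19.9% were called in either direction, 11.5% lower and 8.41% higher, against 6 of 10 lower and 1 of 10 higher here. Both U0126 libraries lay below both controls for 7 of the 10, where 31% of all tested genes did so, and above both for Asf1a and Ezh1, where 31.8% did so. The median log2 fold change was -1.53 over the 10 genes and 0.02 over all tested genes. In bulk RNA, fewer cells of a kind and less RNA per cell cannot be told apart, and this holds for each difference below.

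**Figure D1:**
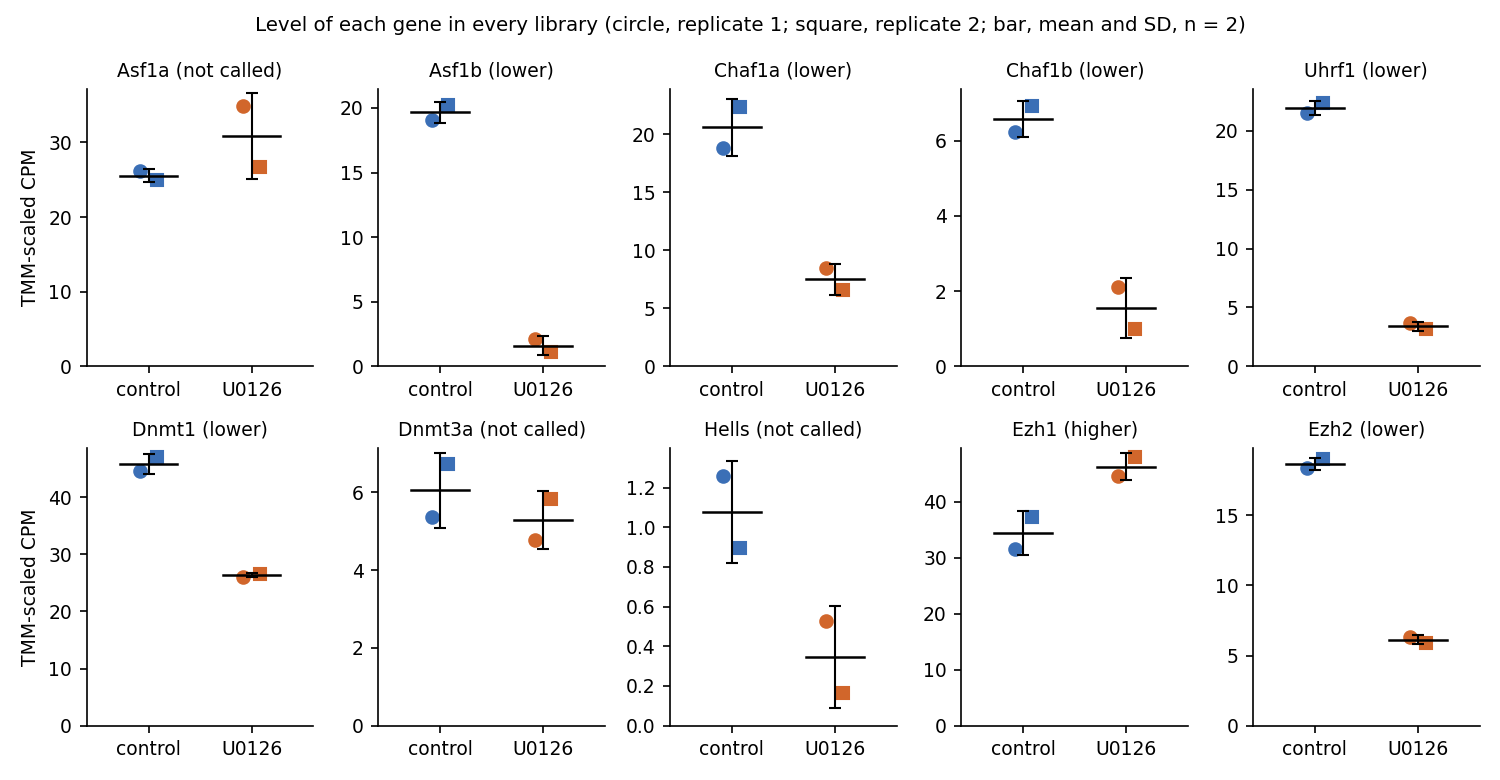
Level of each of the 10 genes in every library, in TMM-scaled CPM on a linear axis from 0 that differs between panels, with replicate 1 as a circle, replicate 2 as a square and black bars for the mean and SD (n = 2). Asf1b goes from 19.7 to 1.61 CPM in the mean and Uhrf1 from 21.9 to 3.42 CPM, while the points of the 2 groups overlap for Dnmt3a.

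Promoter sequences were available for 8 of the 10 genes in RefSeq (build GRCr8, which differs from the rn6 positions used elsewhere), as the 250 bases before and 50 bases after each annotated start. Uhrf1 had 3 such windows, of which the third is printed because it was the only window of Uhrf1 with E2F-type letters, a choice made after the search. The 250 bases before the start are printed for Asf1b and Uhrf1, which had the largest decreases, for Ezh2, which moved apart from its paralog, and for Dnmt3a, which did not pass the test. Capitals mark matches, on either strand, to the E2F-type letters TTTCCCGC, TTTCGCGC, TTTGCCGC or TTTGGCGC and to CCAAT, the letters bound by NF-Y. The sequences run 5′ to 3′ on the strand of the gene: Asf1b from chr19:41100353-41100602 (minus strand), the third Uhrf1 window from chr9:1222936-1223185 (plus strand), Ezh2 from chr4:77687184-77687433 (minus strand) and Dnmt3a from chr6:32598352-32598601 (plus strand).
Asf1b: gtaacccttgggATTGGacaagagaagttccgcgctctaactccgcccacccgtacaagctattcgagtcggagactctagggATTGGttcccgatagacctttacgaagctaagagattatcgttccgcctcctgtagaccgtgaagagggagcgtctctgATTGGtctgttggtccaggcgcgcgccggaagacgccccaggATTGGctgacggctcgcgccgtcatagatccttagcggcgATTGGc
Uhrf1: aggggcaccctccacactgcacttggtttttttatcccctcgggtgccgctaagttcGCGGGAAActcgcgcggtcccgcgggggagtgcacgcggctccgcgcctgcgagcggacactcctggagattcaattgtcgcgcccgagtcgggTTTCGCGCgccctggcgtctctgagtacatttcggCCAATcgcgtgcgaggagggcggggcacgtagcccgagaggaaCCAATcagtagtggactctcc
Ezh2: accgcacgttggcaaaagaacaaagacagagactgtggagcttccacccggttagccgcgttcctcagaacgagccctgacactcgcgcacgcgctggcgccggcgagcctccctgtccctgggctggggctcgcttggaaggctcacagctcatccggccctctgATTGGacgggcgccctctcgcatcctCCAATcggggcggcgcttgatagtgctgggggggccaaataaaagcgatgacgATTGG
Dnmt3a: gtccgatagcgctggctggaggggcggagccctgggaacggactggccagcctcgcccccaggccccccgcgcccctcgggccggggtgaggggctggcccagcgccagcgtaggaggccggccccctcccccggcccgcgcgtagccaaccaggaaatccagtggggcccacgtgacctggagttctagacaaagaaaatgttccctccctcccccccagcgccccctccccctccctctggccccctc
The Asf1b stretch holds 5 CCAAT matches and no E2F-type match. The Uhrf1 stretch holds E2F-type matches at positions -193 to -186 and -99 to -92 from the start and CCAAT matches at -64 to -60 and -21 to -17. The Ezh2 stretch holds 3 CCAAT matches, and its E2F-type match lies past the start, at positions 10 to 17. The Dnmt3a stretch holds none of these letters. Neither does the Chaf1b stretch, not printed, although Chaf1b fell. Hells, which did not pass the test, holds an E2F-type match at positions -29 to -22.

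Over the whole 300-base windows, E2F-type letters were found for 4 of the 8 genes (Hells, Ezh2, Dnmt1 and, in 1 of its 3 windows, Uhrf1), where 2.14% of all 33469 RefSeq promoters and 3.85% of the 10706 promoters of tested genes held them. CCAAT was found for 5 of the 8 (Asf1b, Ezh2, Chaf1a, Dnmt1 and Uhrf1), against 37.5% of all promoters and 37.3% of those of tested genes, and both CCAAT matches in Dnmt1 share bases. TTTGAA, the core of the cell cycle homology region that the DREAM complex reads, was found in the Asf1b window at positions 20 to 25 and in no other of the 8 genes, against 18.3% of all promoters and 12.0% of those of tested genes. GC content of these windows ran from 55.0% to 74.3%, where the median over all promoters was 51.7%. Its part in the matches was not tested. A match is a stretch of letters and not a measured binding site.

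Of the H3-H4 chaperones that hand histones to CAF-1, Asf1b fell and its paralog Asf1a did not pass the test. Asf1b (chromosome 19, 25077918-25092491 in rn6) stood at 19.1 and 20.2 CPM in the controls and 2.14 and 1.08 CPM with U0126. Both U0126 values lay far below both controls, a 12.2-fold lower mean, with a log2 fold change of -3.61 ± 0.28 (SE, n = 2 against 2) and an edgeR adjusted p of 3.52e-04. It had the 59th lowest log2 fold change of the tested genes. Asf1a (chromosome 20, 34894419-34909265) stood at 26.1 and 25.0 CPM in the controls and 34.9 and 26.7 CPM with U0126. The U0126 values were above both controls, but the second exceeded the first control by less than the spread between the U0126 libraries, and the log2 fold change of 0.27 ± 0.14 (95% interval -0.07 to 0.61) had an edgeR adjusted p of 0.240. Without U0126 replicate 2 the difference passed (log2 fold change 0.44, edgeR adjusted p 0.0114). Asf1a overlaps Mcm9 on the opposite strand, which had counts of 324 and 428 in the control libraries and 417 and 408 with U0126, and reads of an overlapping pair could not be told apart here.

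Both CAF-1 subunits fell. Chaf1a, the large subunit (chromosome 9, 11001129-11027506), stood at 18.9 and 22.4 CPM in the controls and 8.46 and 6.57 CPM with U0126. The groups did not overlap, and the log2 fold change was -1.45 ± 0.17 (edgeR adjusted p 0.00188), a 2.74-fold lower level. Chaf1b, the middle subunit (chromosome 11, 34101197-34121378), was less abundant, at 6.23 and 6.91 CPM in the controls and 2.11 and 0.994 CPM with U0126. Its U0126 values were both below the controls but lay far apart from each other, with a coefficient of variation of 50.8% against 7.39% in the controls. The log2 fold change was -2.08 ± 0.33 (edgeR adjusted p 0.00606), and it was -2.72 without U0126 replicate 1. The Chaf1b call was lost without control replicate 2, with an edgeR adjusted p of 0.0534. The third CAF-1 subunit is Rbbp4, a histone-binding protein shared with PRC2, at 78.2 ± 2.15 CPM in the controls and 64.9 ± 5.42 CPM with U0126 (SD, n = 2 each). Rbbp4 did not pass the test with all libraries (log2 fold change -0.27, edgeR adjusted p 0.102) and passed without U0126 replicate 2 (edgeR adjusted p 0.0132).

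Among the genes that copy DNA methylation, Uhrf1 and Dnmt1 both fell, by unequal amounts. Uhrf1 (chromosome 9, 10738222-10757954) stood at 21.5 and 22.4 CPM in the controls and 3.69 and 3.15 CPM with U0126. Its libraries were close together within each group, and the log2 fold change was -2.68 ± 0.15 (edgeR adjusted p 1.48e-04), a 6.40-fold lower level. Dnmt1 (chromosome 8, 21922515-21968495), the enzyme that Uhrf1 recruits, stood at 44.6 and 47.0 CPM in the controls and 26.1 and 26.6 CPM with U0126. It fell by 0.80 ± 0.10 on the log2 scale (edgeR adjusted p 0.00212), a 1.74-fold lower level. The 95% intervals of the log2 fold changes, -3.04 to -2.32 for Uhrf1 and -1.03 to -0.57 for Dnmt1, did not meet. The difference between these genes was not itself tested.

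Hells, the remodeler, was near the limit of what the depth could resolve. It had counts of 50 and 39 in the control libraries and 20 and 6 with U0126, with exact 95% Poisson intervals of 37.1 to 65.9, 27.7 to 53.3, 12.2 to 30.9 and 2.20 to 13.1, which cover counting error only. Both U0126 libraries were below both controls, and the log2 fold change was -1.62 ± 0.60 (95% interval -3.03 to -0.21), with an edgeR adjusted p of 0.105. Without U0126 replicate 1 it passed (log2 fold change -2.67, edgeR adjusted p 0.0282), and without U0126 replicate 2 the log2 fold change was -1.03. The Hells row (chromosome 1, 257766691-257949183) overlaps a same-strand gene annotated as lymphocyte-specific helicase-like, whose counts of 49 and 41 in the controls and 18 and 8 with U0126 nearly match its own, so the value of either row is uncertain. A further same-strand gene, LOC685933, overlaps it too, with counts of 312 and 446 in the control libraries and 517 and 365 in the U0126 libraries. With the Hells row and the helicase-like row summed, an alternative chosen after seeing the data, the log2 fold change was -1.63 (edgeR adjusted p 0.0520). LOC685933 was not part of that sum.

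Dnmt3a (chromosome 6, 28235695-28340577), the de novo methyltransferase, had overlapping groups. It stood at 5.37 and 6.73 CPM in the controls and 4.77 and 5.83 CPM with U0126. The log2 fold change of -0.19 ± 0.20 had a 95% interval of -0.67 to 0.29 and an edgeR adjusted p of 0.552. The Dnmt1 estimate of -0.80 lay outside this interval, but the Dnmt1 interval of -1.03 to -0.57 overlapped it. The other de novo enzyme, Dnmt3b, was low at 0.586 ± 0.0804 CPM in the controls and 0.793 ± 0.146 CPM with U0126 (SD, n = 2 each), and its log2 fold change of 0.43 did not pass (edgeR adjusted p 0.539). Dnmt3l, their catalytically inactive cofactor, had 0 counts in all 4 libraries.

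The PRC2 catalytic subunits went in opposite directions. Ezh2 (chromosome 4, 77284404-77347011) stood at 18.3 and 19.0 CPM in the controls and 6.35 and 5.91 CPM with U0126. The libraries were within 1 CPM of each other in each group, and the log2 fold change was -1.60 ± 0.14 (edgeR adjusted p 4.97e-04), a 3.04-fold lower level. Ezh1 (chromosome 10, 89104027-89130339) stood at 31.6 and 37.3 CPM in the controls and 44.6 and 48.0 CPM with U0126. Both U0126 values were above both controls, a 1.34-fold higher mean, with a log2 fold change of 0.43 ± 0.12 (edgeR adjusted p 0.0420). The Ezh1 call stood close to the threshold and was lost without control replicate 1 (edgeR adjusted p 0.356), without control replicate 2 (0.124), with library totals in place of TMM (0.0631) and with no filter on low counts (0.0567).

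**Figure D2:**
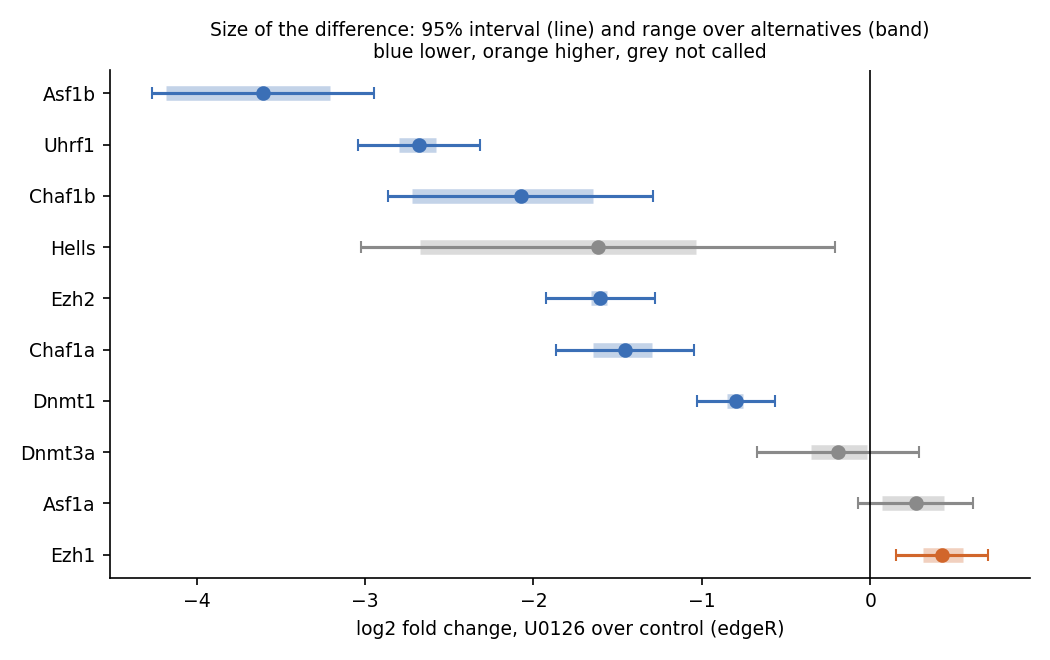
Log2 fold change of U0126 over control for each of the 10 genes from edgeR, with its unadjusted 95% interval as a line, its range over the alternative settings as a pale band, and blue for lower, orange for higher and grey for not called. Asf1b lies lowest at -3.61 and Ezh1 highest at 0.43, and the interval of Hells excludes 0 although its adjusted p of 0.105 does not pass.

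Levels of different genes were compared in TPM, which is scaled by gene length. In the controls Asf1b was the highest of the 10 at 22.3 ± 1.54 TPM, followed by Asf1a at 18.6 ± 1.45, Ezh1 at 14.6 ± 2.07, Dnmt1 at 14.4 ± 1.04, Chaf1a at 12.3 ± 1.80, Ezh2 at 12.0 ± 0.615, Uhrf1 at 10.7 ± 0.587, Chaf1b at 5.82 ± 0.589, Dnmt3a at 2.61 ± 0.478 and Hells at 0.760 ± 0.160 TPM (SD, n = 2). Of the 9 neighbouring pairs in that order, 7 had libraries that did not overlap, and the exceptions were Ezh1 with Dnmt1 and Chaf1a with Ezh2. With U0126 the order began with Asf1a at 21.3 ± 3.72 and Ezh1 at 18.8 ± 1.13 TPM, which overlapped, followed by Dnmt1 at 8.20 ± 0.136 TPM. Chaf1a at 4.30 ± 0.730 and Ezh2 at 3.78 ± 0.160 TPM overlapped and came next. Below them, Dnmt3a at 2.19 ± 0.329, Asf1b at 1.73 ± 0.808, Uhrf1 at 1.64 ± 0.111 and Chaf1b at 1.30 ± 0.664 TPM each overlapped the next, and Hells was last at 0.216 ± 0.179 TPM. Asf1b, which led in the controls, thus stood below Dnmt3a in the mean with U0126.

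Ratios within pairs of related genes put these shifts on a per-library scale. The TPM ratio of Asf1b to Asf1a was 1.08 and 1.33 in the controls and 0.0963 and 0.0623 with U0126. Transcripts of the replication-linked paralog therefore exceeded those of Asf1a in each control library and were far below them in each U0126 library, a 15.4-fold lower ratio and a difference of -3.95 on the log2 scale. With log2 of TPM + 1 in place of no pseudocount, this difference was -3.30. The ratio of Ezh2 to Ezh1 was 0.881 and 0.775 in the controls and 0.216 and 0.187 with U0126, a 4.11-fold lower ratio and a log2 difference of -2.04. The ratio of Dnmt1 to Dnmt3a was 6.01 and 5.13 in the controls and 4.15 and 3.43 with U0126, a 1.47-fold lower ratio and a log2 difference of -0.56. In all 3 pairs both U0126 ratios lay below both control ratios. The two-sided exact permutation p was 0.333 for each of the 3 ratios, the smallest that 2 libraries against 2 can give, so this test could not pass the threshold.

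**Figure D3:**
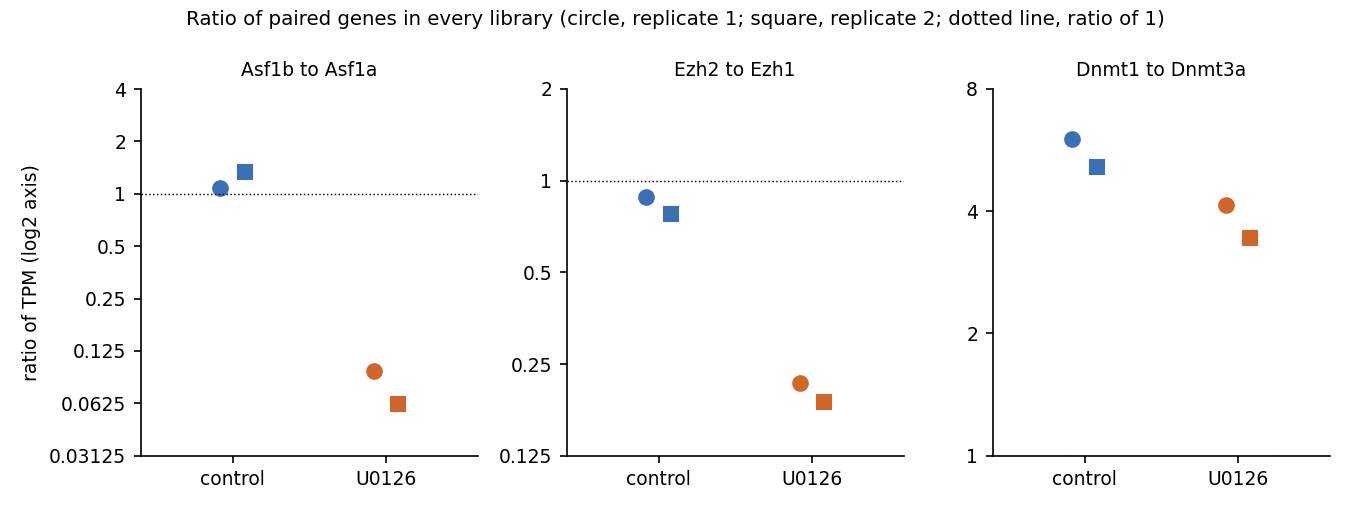
TPM ratio within 3 pairs of related genes in every library, on a log2 axis that differs between panels, with replicate 1 as a circle and replicate 2 as a square. The Asf1b to Asf1a ratio goes from 1.08 and 1.33 to 0.0963 and 0.0623, the Ezh2 to Ezh1 ratio from 0.881 and 0.775 to 0.216 and 0.187, and the Dnmt1 to Dnmt3a ratio from 6.01 and 5.13 to 4.15 and 3.43.

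Other histone chaperones were counted in a list of 28 genes, all tested. Of these 9 fell, 0 rose and 19 were not called, with a median log2 fold change of -0.13. Among all tested genes 11.5% were called lower and 8.41% higher. At an unadjusted p under 0.05 edgeR gave 1 gene higher, and DESeq2 and limma-voom called 0 higher. The 3 with the smallest adjusted p were Hjurp and Mis18a, which load the centromeric histone Cenpa, and Mms22l, which works with Tonsl on replication forks. Hjurp fell from 10.4 ± 0.250 to 1.68 ± 0.383 CPM, Mis18a from 4.61 ± 0.0364 to 0.577 ± 0.153 CPM, and Mms22l from 12.4 ± 1.48 to 3.16 ± 0.563 CPM (SD, n = 2 each). Nasp, which keeps the soluble H3-H4 reserve, fell by 1.02 on the log2 scale (edgeR adjusted p 0.00279). Among chaperones of the replication-independent variant H3.3, Hira had a log2 fold change of -0.01 (edgeR adjusted p 0.960) and Atrx one of -0.15 (0.544), and the sign turned under 3 of the 12 alternative settings for Hira and 1 for Atrx. Daxx fell by 0.40 on the log2 scale (edgeR adjusted p 0.0416), a call lost without control replicate 1 (0.329) or control replicate 2 (0.227), with the replicate number as a block (0.0724) and with no filter on low counts (0.0509). Npm1, the most abundant of the list that was not called, had a log2 fold change of 0.36 (edgeR adjusted p 0.217) and passed without U0126 replicate 2 (0.000612). The count of 9 lower became 4 without control replicate 1 and 4 without control replicate 2. Without U0126 replicate 2, 3 genes were called higher, Npm1 and, named after their values were seen, Spty2d1 and Ubn2.

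Of 23 other genes of DNA methylation and demethylation, 20 were tested, of which 4 fell, 1 rose and 15 were not called, with a median log2 fold change of 0.04. Beside the 19.9% of all tested genes that were called, 5 of 20 is near the background. Those that fell were Cdca7, the partner that activates Hells, Lig1 and Pcna, which act at the replication fork and bind Uhrf1 or Dnmt1, and Ahcy, named after its values were seen. Cdca7 fell from 3.69 ± 0.242 to 0.550 ± 0.154 CPM, Lig1 from 23.1 ± 2.26 to 9.89 ± 0.0365 CPM and Pcna from 63.8 ± 2.86 to 35.8 ± 4.81 CPM (SD, n = 2 each). The Pcna call was lost without control replicate 2 (edgeR adjusted p 0.0515), and the Ahcy call was lost without control replicate 1 (0.116) or control replicate 2 (0.145). Gadd45b, a stress-induced gene linked to active demethylation, rose from 71.9 ± 1.71 to 180 ± 20.3 CPM, a 2.50-fold higher level (edgeR adjusted p 4.07e-04). Uhrf2, the paralog of Uhrf1, stood at 34.6 ± 0.904 CPM in the controls and 40.4 ± 7.12 CPM with U0126 (edgeR adjusted p 0.296) and passed, higher, without U0126 replicate 2 (0.0153). Mat2a, which makes the methyl donor, was the most abundant not called, at a log2 fold change of -0.06. Not tested for low counts were Dnmt3l, Tet1 (5 and 6 counts in the controls, 12 and 4 with U0126) and Cdca7l (7 and 31 counts in the controls, 0 and 0 with U0126). The count lower was 2 without control replicate 2 and rose to 7 when U0126 replicate 2 was left out. The count higher was 2 without U0126 replicate 1, with Tet3 added, and 3 without U0126 replicate 2, with Uhrf2 and Tet2 added, of which Tet3 and Tet2 are named after their values were seen.

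The partners of Ezh1 and Ezh2 and the demethylases of the same mark made a list of 18 genes, of which 3 fell, 0 rose and 15 were not called, with a median log2 fold change of 0.05. Beside the 19.9% of all tested genes that were called, 3 of 18 is near the background. At an unadjusted p under 0.05 edgeR gave 2 genes higher, and DESeq2 and limma-voom called 0 higher. Phf19, an accessory subunit that guides PRC2 to chromatin, fell from 12.5 ± 1.02 to 2.38 ± 0.589 CPM (SD, n = 2 each), 5.23-fold lower. Rbbp7 fell by 0.61 on the log2 scale (edgeR adjusted p 0.0162) and Cbx2, a Polycomb chromodomain protein, by 1.02 (0.0338). Both of these calls were lost without control replicate 1 (0.118 for Rbbp7, 0.122 for Cbx2) and without control replicate 2 (0.110 and 0.310), and the Cbx2 call was also lost with the replicate number as a block (0.0584). The core subunits that Ezh1 and Ezh2 share did not pass: Eed had a log2 fold change of 0.09 (edgeR adjusted p 0.658) and Suz12 one of -0.40 (0.0978), which passed without U0126 replicate 1 (0.0407). Cbx6, the most abundant not called, had a log2 fold change of 0.14. Without U0126 replicate 2, 3 genes of this list were called higher, namely Cbx7, Bmi1 and Jarid2, named after their values were seen.

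Of 10 listed histone variant genes 9 were tested, of which 5 fell, 0 rose and 4 were not called, with a median log2 fold change of -0.61. Among all tested genes 11.5% were called lower and 8.41% higher. No gene of the list was higher in edgeR at an unadjusted p under 0.05, and DESeq2 and limma-voom called 0 higher. Cenpa, the centromeric H3, fell from 15.6 ± 1.81 to 1.67 ± 0.327 CPM, 9.32-fold lower. H2afx, the variant phosphorylated at DNA breaks, fell from 65.5 ± 0.0411 to 29.7 ± 0.846 CPM and H2afz from 42.2 ± 1.62 to 20.6 ± 0.775 CPM (SD, n = 2 each). The others that fell were H2afv and H1fx, named after their values were seen, and both calls were lost without control replicate 1 and without control replicate 2. H3f3b, which encodes H3.3, was at 302 ± 18.0 CPM in the controls and 335 ± 4.99 CPM with U0126 (log2 fold change 0.15, edgeR adjusted p 0.292).

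**Figure D4:**
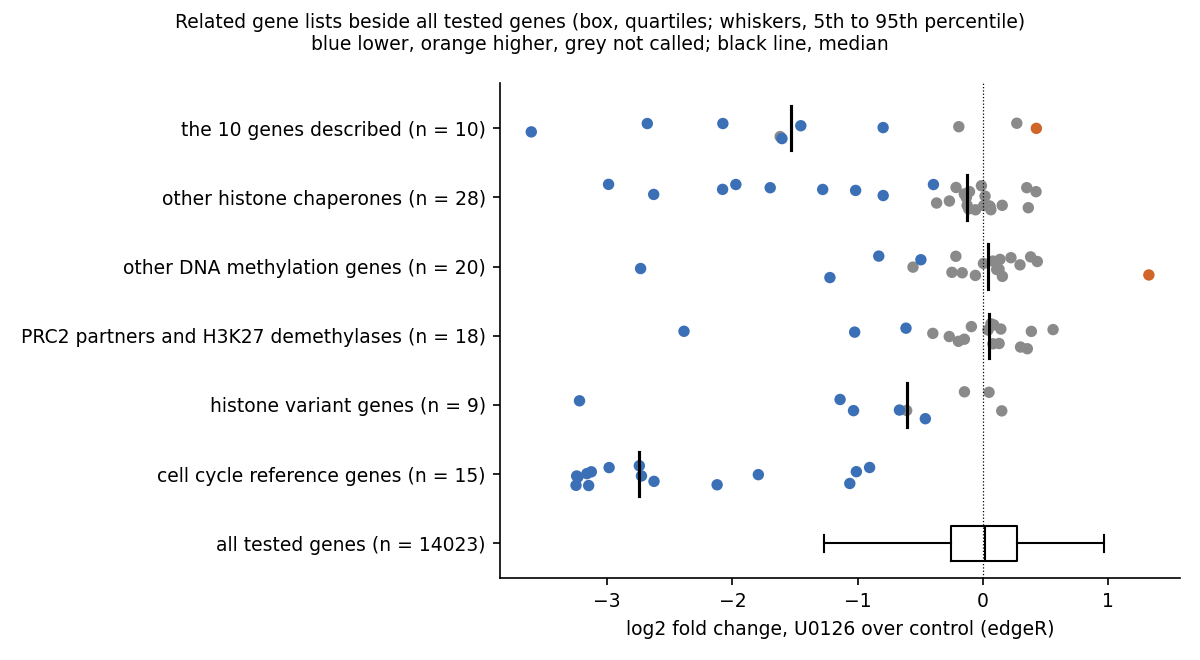
Log2 fold change of every tested member of the 10 genes, of 4 related lists and of 15 cell cycle genes, as points coloured by call with the list's median as a black line, beside the quartiles and the 5th to 95th percentiles of all 14023 tested genes as a box. The medians are -1.53 for the 10 genes, -0.13 for other chaperones, 0.04 for other DNA methylation genes, 0.05 for PRC2 partners and demethylases, -0.61 for histone variants and -2.74 for cell cycle genes.

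Cell cycle genes moved with the same groups, in a list chosen with earlier results of these data known. Of all tested genes 11.5% were called lower. All 15 of a reference list of replication and mitosis genes fell, with a median log2 fold change of -2.74, and 12 of the 15 were called without control replicate 2. Mki67, a nuclear protein of dividing cells, fell from 62.3 ± 3.04 to 7.02 ± 2.93 CPM, 8.86-fold lower, and Mcm5, a subunit of the replicative helicase, from 38.4 ± 2.66 to 4.86 ± 1.06 CPM, 7.91-fold lower (SD, n = 2 each). The decreases of Mki67 and Mcm5 stood between that of Asf1b (12.2-fold) and that of Uhrf1 (6.40-fold), and exceeded those of Chaf1b, Ezh2, Chaf1a and Dnmt1. This did not hold for the whole list. Rfc3, Pold1 and Mcm2 fell less than Chaf1b, Ezh2 and Chaf1a, and Ccne2 fell less than Chaf1b. The rest of the list fell more than Chaf1b, and every gene of it fell more than Dnmt1. The skeletal muscle marker sum, mostly Acta1, tendon markers such as Tnc and Fmod, and the mitochondrial share given above also differed between the groups. The part of cell cycle, muscle and tendon markers and mitochondrial share in the values of the 10 genes was not tested.

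For each of the 10 genes, the tested genes with the nearest profile were found by the Euclidean distance between log2 CPM values centred on each gene's mean, over 4 libraries and among genes whose mean log2 CPM reached 3. Asf1b lay nearest to Espl1 (0.260), Gas2l3 (0.280) and Cenpe (0.348). Chaf1b lay nearest to Bub1 (0.209), Kif23 (0.249) and Fancd2 (0.378), and Uhrf1 to Kif22 (0.0374), Diaph3 (0.109) and Stmn1 (0.141). Espl1, Cenpe, Bub1, Kif23 and Kif22 are known from mitosis. Chaf1a lay nearest to Slc8a1 (0.104), Fen1 (0.170) and Rfc5 (0.170), and Ezh2 to Ncapd2 (0.0884), Fen1 (0.107) and Adgrg6 (0.112), so the flap endonuclease Fen1 of lagging-strand synthesis was near both. Hells lay nearest to Smc2 (0.519), Nusap1 (0.552) and Gnpnat1 (0.630). Its own mean log2 CPM of -0.37 was below the 3 required here, so genes as low as Hells were not among the candidates. Dnmt1 lay nearest to Htra1 (0.0385), Ehd4 (0.0415) and Nacad (0.0471). Of the genes that did not fall, Asf1a lay nearest to Marf1 (0.0216), Fnbp4 (0.0285) and Zbtb11 (0.0399), Ezh1 to Lrp1 (0.0191), Fat1 (0.0451) and Zfp652 (0.0475), and Dnmt3a to Tcf20, Polg and Chmp6. With 4 libraries in 2 groups, genes that differ between the groups by a like amount lie near each other by this measure.

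Asf1b, Chaf1a, Uhrf1, Dnmt1 and Ezh2 passed the test under all 12 alternative settings tried, among them leaving out each library in turn. Their highest adjusted p over those settings, which used edgeR, DESeq2 or limma-voom, was 0.00443 for Asf1b, 0.0244 for Chaf1a, 0.00286 for Uhrf1, 0.0451 for Dnmt1 and 0.00976 for Ezh2. Dnmt3a did not pass in any of them. Calls for Asf1a, Chaf1b, Hells and Ezh1 each changed with at least 1 library left out, as given with each gene. Among the 5, Asf1b had the widest range of log2 fold changes over the 12 settings, from -4.18 to -3.21. Its U0126 libraries held 81 and 39 counts, with exact 95% Poisson intervals of 64.3 to 101 and 27.7 to 53.3 that did not meet.

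**Figure D5:**
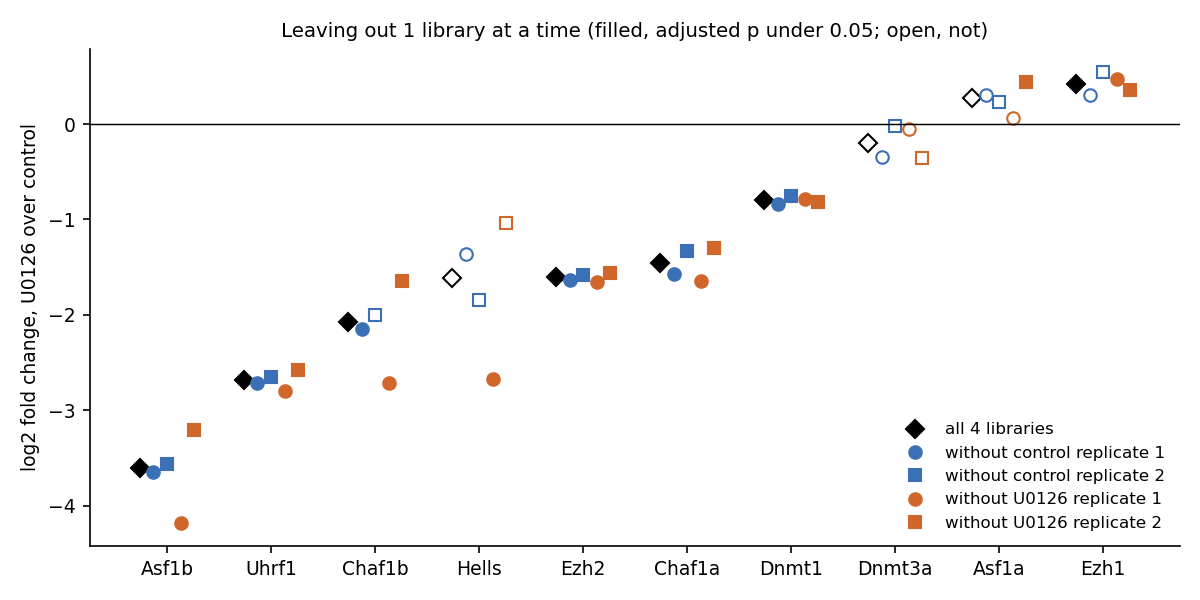
Log2 fold change of each of the 10 genes with all libraries and with each library left out in turn, as symbols filled where the edgeR adjusted p was under 0.05 and open where it was not. Asf1b, Chaf1a, Uhrf1, Dnmt1 and Ezh2 pass throughout, Chaf1b does not pass without control replicate 2, and Hells passes only without U0126 replicate 1.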

How the data were processed

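Per the labels' protocols, Trizol was used to extract total RNA for the 4 TSPC libraries, which were prepared for Illumina sequencing. The submitters' processing notes name genome build rn6. Aligner, counting tool, strand setting and annotation: not given in the sources used here. The authors deposited 1 table that holds counts, TPM and FPKM for every gene in every library, per the file headers. The deposited counts are whole numbers, not normalized. The deposited TPM values, scaled by gene length and library, served to compare genes, and the deposited FPKM values served only as an alternative to TPM. Columns were matched to samples by header, with 0 unmatched.

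Genes passing edgeR's filterByExpr (minimum count 10, minimum total 15) numbered 14023. Group differences were tested two-sided with TMM scaling and edgeR's quasi-likelihood F test (R 4.3.3, edgeR 4.0.16, limma 3.58.1), with Benjamini-Hochberg adjustment over all tested genes and a threshold of 0.05. Log2 fold changes carry a prior count of 0.125. Alternatives were RLE, upper quartile and no scaling factors, no and a stricter filter (CPM of at least 1 in all libraries), DESeq2 1.42.0, limma-voom, a replicate block and leaving out each library. The test was checked on simulated counts.

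The 10 genes and all lists were chosen with earlier results of these data known. Beside the 10, genes were named by a written rule: 15 by name, up to 3 called genes with the smallest adjusted p and the most abundant gene not called of each of 4 related lists, and the 3 nearest profiles per gene. Marker lists covered tendon, skeletal muscle, macrophage, endothelial and blood cells. Promoters came from RefSeq, matched by symbol.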

Additional observations from a re-analysis of the deposited data

How the results depend on the processing

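The directions of the 10 genes held under all 12 alternatives to scaling, filter, test, pairing and library set that could test them, and the 3 pair ratios kept theirs. Among the 10 genes the count lower ran from 5 to 7 and the count higher was 0 with library totals alone and 0 with no filter on low counts, where the call of Ezh1 was lost. Chaf1b was not tested under the stricter filter, nor was Hells. With 1 library left out, the lone library of a group is assumed to vary like the other group. Then genes changed ran from 899 to 4644, against 2792 with all libraries: 913 and 899 with control replicate 1 or 2 left out, in that order, and 3277 and 4644 with U0126 replicate 1 or 2 left out. Over the same 4 fits, the 10 genes had 0 to 2 higher, other histone chaperones 4 to 11 lower and 0 to 3 higher, other DNA methylation genes 2 to 7 lower and 1 to 3 higher, PRC2 partners and H3K27 demethylases 1 to 4 lower and 0 to 3 higher, histone variants 3 to 6 lower and cell cycle genes 12 to 15 lower. The cause of these shifts was not tested. Library totals alone called 66.1% of changed genes lower, against 57.7% with TMM.

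The replicate numbers do not pair the libraries by any label, and deviations of same-numbered libraries from their group means had a correlation of -0.03 over 14023 genes. With the replicate block 2371 genes changed, the 10 genes had 6 lower and 1 higher, and the log2 ratio differences were -3.95, -2.04 and -0.56. An exact test that flips the sign of each pair's difference gave a p of 0.5 for each ratio. This is the smallest p that so few pairs can give, so this test could not pass the threshold. Counts were low for Hells, and for Chaf1b and Asf1b with U0126.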
